A study of Homo sapiens with 2 samples.

Results

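Nuclear genes for the oxidative phosphorylation machinery were examined in RNA that came down with an IMP1 antibody or with normal IgG from T47D cells. T47D is an established luminal breast cancer line, here wild-type and grown in DMEM with serum, and IMP1 is an RNA-binding protein that associates with many cytoplasmic mRNAs. Lysate was mixed with protein A beads that carried either the antibody or normal IgG, and RNA from the precipitates was extracted with TRIzol and sequenced. There was 1 library per condition, so no difference here has a replicate check and no test between conditions was run. No library of the lysate itself was used here, so a value describes what came down with the beads and is not a level in the cell. The genes were those whose symbol begins with NDUFA, NDUFB, NDUFC, NDUFS, NDUFV, UQCR or ATP5, is SDHA, SDHB, SDHC, SDHD or CYC1, or begins with COX followed by a digit from 4 to 8 and then by A, B, C or a digit. This rule took 103 of the 18781 genes in the table and used no measured value. Of the 103, 75 were structural subunits of complexes I to V, 8 were complex I assembly factors, and 9 were pseudogenes. The other 11 were 4 second identifiers of a named gene, 2 read-through genes, 2 antisense RNAs, 2 paralogs (COX7A2L and NDUFA4L2) and the ATP synthase coupling factor ATP5S.

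Oxidative phosphorylation takes place in the inner mitochondrial membrane. Complex I (NADH dehydrogenase) and complex II (succinate dehydrogenase) feed electrons to ubiquinone, complex III passes them to cytochrome c, and complex IV reduces oxygen. Complexes I, III and IV pump protons, and complex V (ATP synthase) lets them back through a rotating ring to make ATP. Most subunits are encoded in the nucleus, translated in the cytosol and imported, while a few core subunits are made inside mitochondria from mitochondrial DNA. The nuclear subunit mRNAs are short and abundant in most cells.

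The values were FPKM, fragment counts scaled by transcript length and library size. They did not come out as whole reads, since 388 values with IMP1 and 265 with IgG lay above 0 and below 0.001 FPKM, so depth is unknown and no counting interval can be given. Summed over all genes, FPKM came to 353885 with IMP1 and 1298363 with IgG, of which mitochondrially encoded RNA made up 48.4% and 59.9%. With IgG 7270 genes were listed at 0, against 1202 with IMP1. The cell type was checked against its markers. All 9 luminal epithelial markers were above 0 in both libraries, with summed levels of 899 FPKM with IMP1 and 345 FPKM with IgG. The 8 mesenchymal markers were all lower in the IMP1 library, with summed levels of 1.31 and 149 FPKM. DCN, LUM, COL1A2, SPARC and ZEB2 were listed at 0 in the IMP1 library. Part of the RNA in the IgG library thus came from genes that luminal cells are not known for, and the part of this in the values below was not tested.

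The respiratory chain genes differed in both directions between the libraries, and as a group they lay near equal levels. Together they summed to 3408 FPKM with IMP1 and 3813 FPKM with IgG. Their share of all FPKM was 0.963% with IMP1 and 0.294% with IgG, and without mitochondrially encoded RNA it was 1.87% and 0.732%. The share was thus higher with the IMP1 antibody while the sum was lower, because the 2 libraries had unlike totals. Ratios below are log2 of the IMP1 over the IgG value after adding 0.1 FPKM to each, and a gene is called higher or lower past 2-fold on that scale. Every direction is on the deposited scale, and a rescaling that raises all ratios turns the sign of some that are below 0. By this count 31 of the 103 genes were higher with IMP1 and 18 were lower, with a median log2 ratio of 0.01. That median is the ratio of the read-through gene NDUFC2-KCTD14, which was below 0.001 FPKM in both libraries. The 75 structural subunits had a median of -0.04. Over all 18781 genes, 39.9% were higher and 29.9% were lower, with a median of 0.40.

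Genes listed at 0 with IgG weigh on these figures, and 17 of the 103 were listed at 0 there while 2 (NDUFA4L2 and the pseudogene UQCRBP1) were listed at 0 with IMP1. Of the 79 respiratory chain genes at 1 FPKM or more in both, 16 (20.3%) were higher and 14 (17.7%) lower, with a median of -0.23. Among all 6909 genes at that level 11.5% were higher and 44.0% lower, with a median of -0.78. At 10 FPKM or more in both libraries, 8 of 60 respiratory chain genes (13.3%) were higher and 11 (18.3%) lower, with a median of -0.38. Of all 1628 genes at that level 9.58% were higher and 31.6% lower, with a median of -0.46. At both levels a smaller share of the respiratory chain genes than of all genes was lower with IMP1, and at the higher level the medians were close. The subunits are abundant as a class, with medians of 37.9 FPKM with IMP1 and 35.2 FPKM with IgG over the 75 structural subunits.

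**Figure D1:**
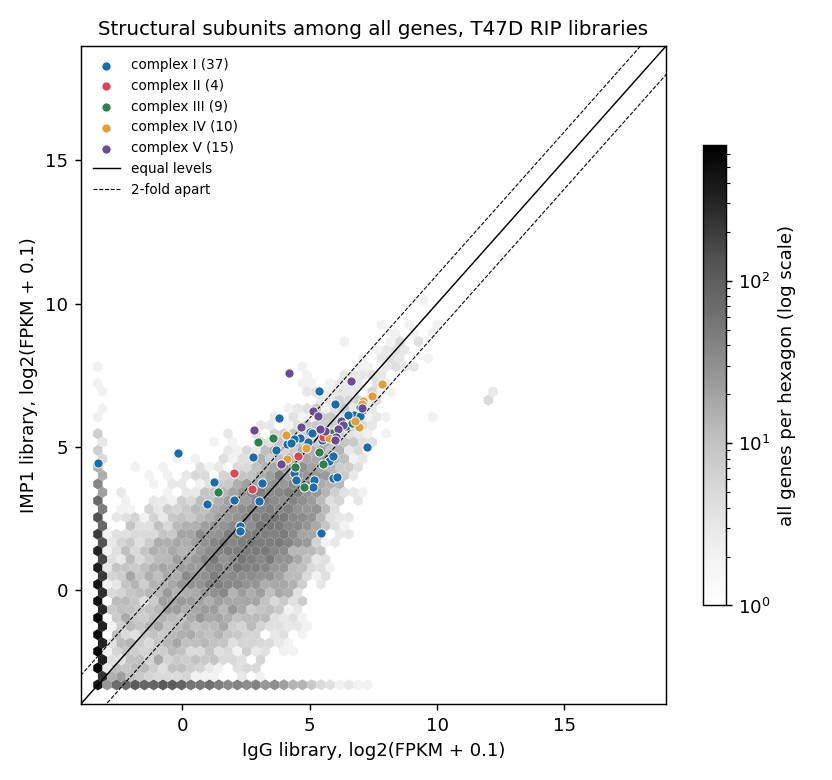
Level of each gene in the IgG library (x axis) and the IMP1 library (y axis), as log2(FPKM + 0.1), with all genes in grey and the 75 structural subunits coloured by complex. The subunits lie on both sides of the line of equal level, and ATP5G2 and NDUFA5 lie farthest from it among subunits at 1 FPKM or more in both.

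Across the 73 structural subunits at 1 FPKM or more in both, the order of levels was partly kept between the libraries (Spearman's rho 0.64 over subunits, against 0.55 over the 6909 genes). These are correlations across genes of the same 2 libraries, and genes are not independent replicates. The 5 highest members with IMP1 were ATP5G2, ATP5J2, COX8A, NDUFC2 and COX7C, and with IgG they were COX8A, COX7C, NDUFB10, COX6A1 and ATP5B. COX8A and COX7C, small subunits of complex IV, stood in both lists. Fewer members passed 100 FPKM with IMP1 (5) than with IgG (12), while more passed 10 FPKM (71 against 62).

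The far ends of the range among structural subunits at 1 FPKM or more in both were ATP5G2 and NDUFA5. ATP5G2 (ENSG00000135390), which encodes one of the 3 precursors of the proton-carrying c subunit, had 191 FPKM with IMP1 and 17.9 FPKM with IgG, 10.7-fold higher with IMP1. It was the highest of all members in the IMP1 library and ranked 54 in the IgG library. NDUFA5 (ENSG00000128609), an accessory subunit of complex I, had 3.86 FPKM with IMP1 and 43.1 FPKM with IgG, 11.2-fold lower with IMP1. Their deposited intervals on hg19 were chr12:54026510-54071192 and chr7:123177051-123198309, with no other listed gene in either. Both genes have, in the 250 bases before a RefSeq start site, the letters CGCATGCG, the core of the sequence bound by NRF1, a transcription factor known for respiratory chain promoters. The windows are shown because 2 promoters with the same letters belong to the genes with the most unlike ratios. They come from RefSeq on GRCh38.p14, a later build than that of the deposited intervals, are 1 of 3 windows listed for each gene, and read 5′ to 3′ on the gene's strand with the match in capitals. The ATP5G2 window is chr12:53676084-53676333 on the minus strand and the NDUFA5 window is chr7:123557819-123558068 on the minus strand.
ATP5G2: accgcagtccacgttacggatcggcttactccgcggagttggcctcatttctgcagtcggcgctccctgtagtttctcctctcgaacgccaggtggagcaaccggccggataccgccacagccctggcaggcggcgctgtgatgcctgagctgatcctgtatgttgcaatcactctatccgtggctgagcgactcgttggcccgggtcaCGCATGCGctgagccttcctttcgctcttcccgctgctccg
NDUFA5: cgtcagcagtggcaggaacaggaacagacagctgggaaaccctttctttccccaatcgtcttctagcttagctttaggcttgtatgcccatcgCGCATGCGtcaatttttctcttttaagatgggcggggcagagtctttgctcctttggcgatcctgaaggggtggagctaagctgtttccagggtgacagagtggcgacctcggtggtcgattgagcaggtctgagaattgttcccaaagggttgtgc

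For the counts, whole windows of 300 bases were used, 250 before and 50 after a start site. They were found for 72 of the 103 members, 88 windows in all. The letters CGCATGCG, searched on both strands over the whole window, stood in 12 of the 88 windows (13.6%). The same letters stood in 3.07% of the 17414 windows of genes in the deposited table and in 2.02% of all 35116 windows. The letters CCGGAAG, which ETS factors such as GABPA bind, were searched on both strands too and do not overlap the first motif. They stood in 21 of the 88 windows (23.9%), against 15.6% of the windows of genes in the table and 10.3% of all windows. The first motif was thus more frequent in the windows of respiratory chain genes than in those of all genes, and the second somewhat more frequent. The ratio was spread widely among the genes with either motif. The 11 structural subunits at 1 FPKM or more in both and with CGCATGCG had a median log2 ratio of -0.33 and a range from -3.45 to 3.41, and the 48 without it had a median of 0.03. The 19 with CCGGAAG had a median of -0.22 and a range from -1.27 to 2.18, and the 40 without it had a median of -0.03. The ends of that narrower range were NDUFA13 and COX6B1, shown to set a higher and a lower gene with the same motif side by side, at chr19:19515975-19516224 and chr19:35648073-35648322 on the plus strand of GRCh38.p14. The capitals in NDUFA13 are CCGGAAG, and those in COX6B1 are CTTCCGG, the same motif read on the other strand.
NDUFA13: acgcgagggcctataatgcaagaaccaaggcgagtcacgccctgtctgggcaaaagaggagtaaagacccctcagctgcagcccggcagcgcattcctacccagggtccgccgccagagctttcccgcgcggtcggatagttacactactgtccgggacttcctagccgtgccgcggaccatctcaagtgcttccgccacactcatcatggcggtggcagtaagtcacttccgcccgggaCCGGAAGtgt
COX6B1: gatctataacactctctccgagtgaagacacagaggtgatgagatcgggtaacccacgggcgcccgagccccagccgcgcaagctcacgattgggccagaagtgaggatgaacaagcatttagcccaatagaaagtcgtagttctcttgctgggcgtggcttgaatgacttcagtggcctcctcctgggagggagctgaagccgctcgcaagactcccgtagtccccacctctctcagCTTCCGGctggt
A match describes the letters in these windows only and says nothing of binding in T47D cells.

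The complexes differed in their medians. Over all members complex V was highest, with a median log2 ratio of 0.66 over its 21 members. That median is the ratio of the pseudogene ATP5A1P3, at 0.0581 FPKM with IMP1 and 0 with IgG. It thus depends on the 0.1 FPKM added. Of the 21 members 8 (38.1%) were higher with IMP1, near the 39.9% of all genes, and 1 was lower. The 8 include 4 genes listed at 0 with IgG, ATP5S and 3 pseudogenes, and the lower one is the read-through gene ATP5J2-PTCD1, at 0.0647 and 0.581 FPKM. Complex IV was lowest, with a median of -0.64 over 13 members. Of these 1 was higher and 4 (30.8%) were lower, near the 29.9% of all genes that were lower. The 4 are the structural subunit COX6B1, the paralogs COX7A2L and NDUFA4L2, and the pseudogene COX6A1P2. Complexes I (51 members, 16 higher and 10 lower) and II (5 members, 1 higher and 0 lower) had medians of 0.09 and 0.12, and complex III (13 members, 5 higher and 3 lower) had a median of -0.36. Among structural subunits alone, the summed level was 1030 FPKM with IMP1 and 815 FPKM with IgG for complex V. For complex IV it was 688 and 1019 FPKM, for complex I 1262 and 1481 FPKM, for complex III 267 and 315 FPKM, and for complex II 94.0 and 80.0 FPKM. The sums of complexes I, III and IV were thus higher with IgG and those of complexes II and V higher with IMP1, and structural subunits lay past 2-fold on both sides in complexes I, III and IV. In complex V 4 were higher and none was lower, and in complex II 1 was higher and none was lower. Over structural subunits alone the medians were 0.09, 0.46, -0.36, -0.53 and 0.21 in complexes I to V, so that complex IV was again lowest and complex II highest. Over members at 1 FPKM or more in both the medians were -0.23, 0.46, -0.38, -0.56 and 0.21, in the same order of lowest and highest.

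**Figure D2:**
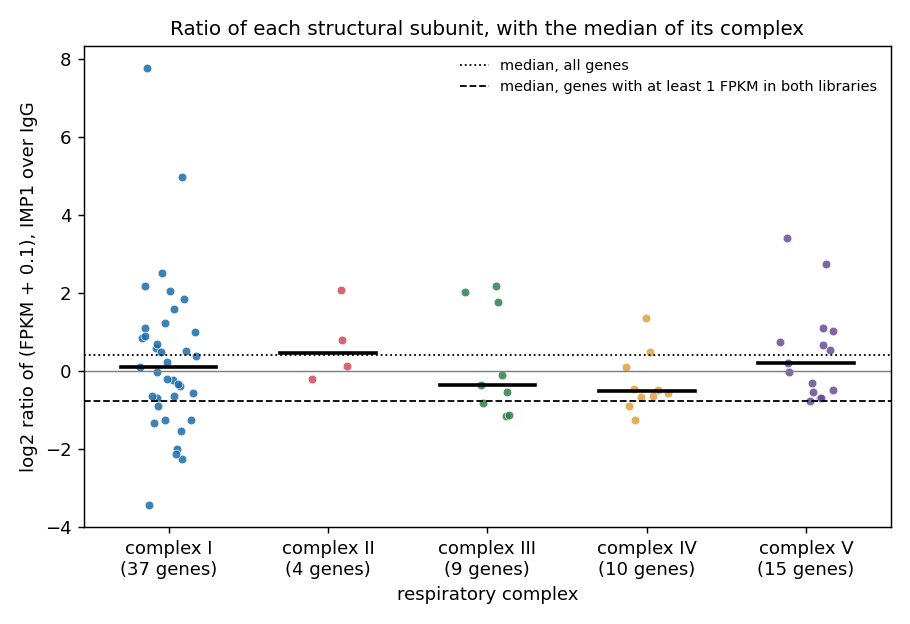
Log2 ratio of IMP1 over IgG, on FPKM + 0.1, for the 75 structural subunits of complexes I to V, 1 point per gene, with a bar at the median of each complex and lines at the median of all genes (dotted) and of genes at 1 FPKM or more in both (dashed). Medians over structural subunits run from -0.53 in complex IV to 0.46 in complex II, and the subunits of a complex spread over a much wider range than the medians; the complex IV median turns positive with the median gene or the sums set equal.

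Of the catalytic subunits of complex I described here, NDUFV2 was past 2-fold and the other 5 were not. NDUFV2, an iron-sulfur subunit of the NADH-oxidising module, had 15.4 FPKM with IMP1 and 68.0 FPKM with IgG (4.43-fold lower). NDUFS1, the large iron-sulfur subunit, had 4.01 and 4.68 FPKM with IMP1 and IgG, and NDUFS3, of the matrix arm, had 34.6 and 19.4 FPKM. The iron-sulfur subunits next to the quinone site, NDUFS7 (16.7 and 21.0 FPKM) and NDUFS8 (83.5 and 124 FPKM), and the NADH-binding NDUFV1 (14.1 and 22.1 FPKM) all had smaller values with IMP1 but lay within 2-fold. The partners NDUFV1 and NDUFV2 thus had unlike ratios, -0.65 and -2.14.

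The accessory subunits of complex I that are named with A held the widest spread. Of 13 such genes 7 (53.8%) were higher with IMP1 and 3 (23.1%) lower, with a median of 1.11, against 39.9% and 29.9% of all genes. Over the 11 of them at 1 FPKM or more in both, 5 (45.5%) were higher and 3 (27.3%) lower and the median was 0.51, against 11.5% and 44.0% of all genes at that level. Of the 11 named with B none was higher and 2 were lower, with a median of -0.39. These groups follow the names and not the place in the complex. In the A group NDUFA6, a subunit of the matrix arm, had 27.5 FPKM with IMP1 and 0.782 FPKM with IgG. NDUFA7 (ENSG00000267855) had 21.7 FPKM with IMP1 and was listed at 0 with IgG, the only structural subunit at 0 in a library. Both stood far to the IMP1 side, and both share their deposited interval with other genes. That of NDUFA7 also holds the ribosomal protein gene RPS28, at 196 and 83.0 FPKM, and CD320 and KANK3, which were listed at 0 with IgG as well.

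NDUFA13, also known as GRIM-19 and linked to cell death signalling, had 63.3 FPKM with IMP1 and 13.9 FPKM with IgG (4.57-fold higher). NDUFA8 had 13.4 and 2.27 FPKM (5.91-fold), and NDUFA9, which lies near the quinone site, had 7.86 and 1.83 FPKM (4.29-fold). NDUFAB1, the mitochondrial acyl carrier protein, had 29.6 and 12.5 FPKM, and NDUFA1, a membrane subunit, had 8.74 and 4.01 FPKM. All 5 were higher with IMP1. On the other side, beside NDUFA5, stood NDUFA10 with 13.996 FPKM with IMP1 and 35.6 FPKM with IgG, and NDUFA2 with 22.6 and 54.5 FPKM. The other 3 lay within 2-fold, between log2 ratios of -0.23 for NDUFA12 and 0.51 for NDUFA11.

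In the B group, which sits mostly in the membrane arm, NDUFB10 and NDUFB3 were lower with IMP1. NDUFB10 had 31.4 FPKM with IMP1 and 151 FPKM with IgG (4.82-fold lower), and was the third highest member with IgG. NDUFB3 had 14.9 and 60.2 FPKM (4.03-fold lower). The other 9 ran from -0.90 for NDUFB9 (67.7 and 127 FPKM) to 0.999 for NDUFB11 (34.2 and 17.1 FPKM), the latter just short of 2-fold once 0.1 FPKM was added. The pair named with C split, as NDUFC2 had 123 FPKM with IMP1 and 41.1 FPKM with IgG (2.99-fold higher) and NDUFC1 had 25.2 and 60.5 FPKM. Of the accessory subunits named with S and V, NDUFS4 was lower, at 12.0 and 34.9 FPKM, and NDUFS5, NDUFS6 and NDUFV3 lay within 2-fold. NDUFS4 is needed for a stable NADH-oxidising module.

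**Figure D3:**
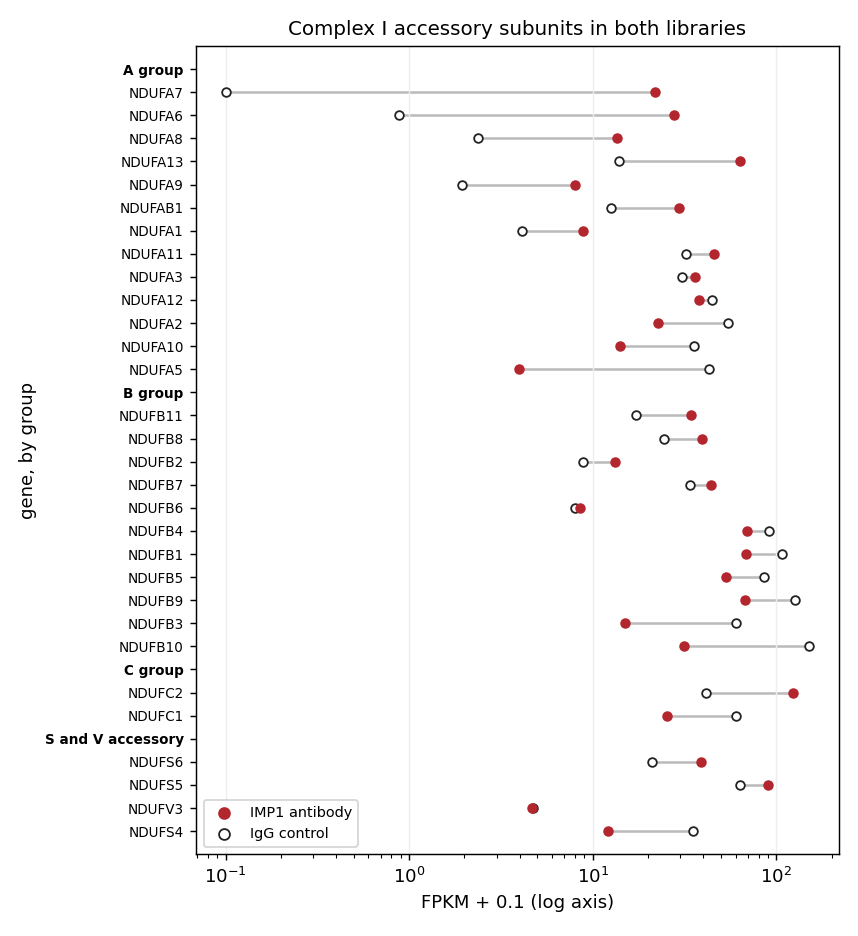
FPKM of each accessory subunit of complex I in the IMP1 and the IgG library on a log axis after adding 0.1 FPKM, 1 pair of points per gene (filled red for IMP1, open for IgG). NDUFA5, NDUFB10 and NDUFB3 are higher in the IgG library, and NDUFA6, NDUFA7 and NDUFC2 are higher in the IMP1 library.

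The 8 assembly factors of complex I, which help to build the complex without staying in it, had between 1.13 and 13.8 FPKM with IMP1. NDUFAF3 had 13.8 FPKM with IMP1, NDUFAF6 3.03 FPKM, NDUFAF1 2.84 FPKM and NDUFAF7 1.30 FPKM, and all 4 were listed at 0 with IgG. Of the other 4, NDUFAF2 and NDUFAF4 were lower with IMP1 and NDUFAF5 and ATP5SL lay within 2-fold. NDUFAF2 had 1.13 FPKM with IMP1 and 7.36 FPKM with IgG, NDUFAF4 had 5.77 and 15.6 FPKM, NDUFAF5 had 4.12 and 5.84 FPKM, and ATP5SL, now named DMAC2, had 5.64 and 7.59 FPKM. The median over these 4 was -0.96, so the median of 1.69 over all 8 rests on the genes listed at 0.

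In complex II 1 of the catalytic pair was higher with IMP1, and the membrane anchors were near equal. SDHB, the iron-sulfur subunit, had 17.0 FPKM with IMP1 and 3.96 FPKM with IgG (4.29-fold), and SDHA, the flavoprotein, had 11.3 and 6.51 FPKM, which is within 2-fold. The anchors were SDHC, with 40.4 and 46.3 FPKM, and SDHD, with 25.3 and 23.2 FPKM. Each anchor exceeded both catalytic subunits in both libraries.

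In complex III both subunits that carry the electrons onward to cytochrome c were higher with IMP1, while the large core proteins were not. CYC1, which is cytochrome c1, had 35.5 FPKM with IMP1 and 7.75 FPKM with IgG (4.59-fold). UQCRFS1, the Rieske iron-sulfur protein, had 10.6 and 2.51 FPKM (4.21-fold). UQCRC1 had 19.5 and 21.1 FPKM, and UQCRC2 had 21.0 and 45.8 FPKM (2.18-fold lower). Among the 5 small subunits UQCR10 was higher, at 39.6 FPKM with IMP1 and 11.6 FPKM with IgG (3.40-fold), and UQCR11 lower, at 12.0 and 27.1 FPKM. UQCRB, a quinone-site subunit, had 56.6 and 100.5 FPKM, UQCRQ 44.6 and 57.5 FPKM, and UQCRH, the hinge protein, 27.9 and 40.8 FPKM, all within 2-fold.

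Complex IV had the highest median level of the complexes with IgG, 117 FPKM over its 10 structural subunits against 55.1 FPKM with IMP1. COX5A was the only one past 2-fold on the IMP1 side, with 42.0 FPKM with IMP1 and 16.5 FPKM with IgG (2.55-fold), whereas its neighbour in the matrix domain, COX5B, had 30.9 and 29.1 FPKM. COX6B1, which faces the intermembrane space, was the only one past 2-fold on the IgG side, with 50.9 and 123 FPKM (2.41-fold lower). COX8A had 145 FPKM with IMP1 and 226 FPKM with IgG and was the highest member with IgG. COX7C had 109.6 and 173 FPKM, COX6A1 97.2 and 137 FPKM, COX6C 90.6 and 133 FPKM, NDUFA4 59.2 and 110.2 FPKM, and COX7A2 39.0 and 53.7 FPKM. All 5 had smaller values with IMP1 but lay within 2-fold, and COX7B, at 23.8 and 17.1 FPKM, was within 2-fold on the other side. The paralogs of this complex stood on the IgG side. COX7A2L, known for its role in joining complexes III and IV into supercomplexes, had 13.4 FPKM with IMP1 and 53.5 FPKM with IgG (3.98-fold lower), and NDUFA4L2, a hypoxia-induced relative of NDUFA4, was listed at 0 with IMP1 and had 7.08 FPKM with IgG.

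In complex V the c-ring stood apart from the catalytic head. All 3 genes for the c subunit, whose mature protein is the same and whose import peptides differ, were higher with IMP1, and they summed to 290 FPKM with IMP1 and 49.97 FPKM with IgG. Beside ATP5G2, ATP5G1 had 47.4 and 6.96 FPKM (6.81-fold), and ATP5G3 had 51.4 and 25.2 FPKM (2.04-fold). None of the 5 genes of the F1 head passed 2-fold in either direction, and they summed to 230 FPKM with IMP1 and 321 FPKM with IgG. ATP5B, the catalytic beta subunit, had 82.1 and 134 FPKM, ATP5A1, the alpha subunit, 49.4 and 42.6 FPKM, and ATP5C1, the gamma subunit of the rotor, 40.5 and 65.7 FPKM. ATP5D and ATP5E, which belong to the central stalk, had 37.4 and 63.9 FPKM and 20.9 and 14.4 FPKM. The ranges of the log2 ratio did not overlap between these groups of genes, 1.03 to 3.41 for the c-ring and -0.77 to 0.53 for the head. Of all genes at 1 FPKM or more in both, 11.5% were higher and 44.0% lower. The groups were described after their values were known, and 3 genes of the same family are not independent measurements.

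The peripheral stalk, which holds the head still, had a median log2 ratio of -0.26 over 4 genes, none past 2-fold. ATP5O had 66.6 FPKM with IMP1 and 39.6 FPKM with IgG, ATP5F1 46.7 and 48.0 FPKM, ATP5H 54.5 and 79.3 FPKM, and ATP5J 49.1 and 68.4 FPKM. Of the 3 other membrane subunits ATP5L was higher with IMP1, at 75.2 and 35.2 FPKM (2.14-fold). ATP5J2, at 158 and 99.4 FPKM, was the second highest member with IMP1, and ATP5I had 60.2 and 74.2 FPKM. ATP5S had 1.07 FPKM with IMP1 and was listed at 0 with IgG.

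**Figure D4:**
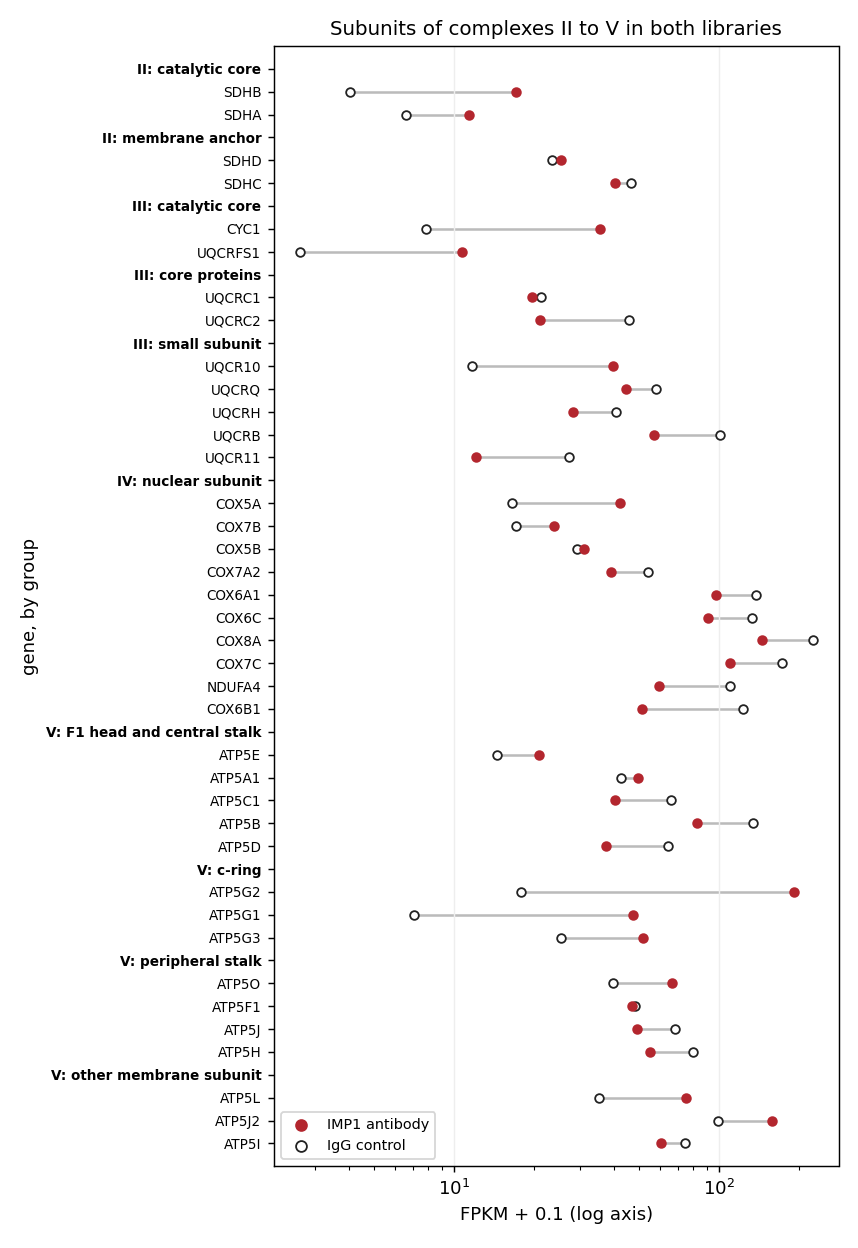
FPKM of each structural subunit of complexes II to V in the IMP1 and the IgG library on a log axis after adding 0.1 FPKM, 1 pair of points per gene (filled red for IMP1, open for IgG). The 3 c-ring genes, SDHB, CYC1 and UQCRFS1 are higher in the IMP1 library, and most complex IV genes lie within 2-fold, with COX6B1 past it on the IgG side and COX5A on the IMP1 side (all points are on the deposited scale).

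Most members outside the subunits, assembly factors and paralogs had low values. Of the 9 pseudogenes 5 (55.6%) were higher with IMP1 and 2 (22.2%) lower, against 39.9% and 29.9% of all genes, and 6 were listed at 0 with IgG. NDUFB1P1 (2.84 FPKM with IMP1), UQCRBP2 (0.879 FPKM), ATP5LP2 (0.705 FPKM), ATP5EP2 (0.408 FPKM), ATP5G2P4 (0.319 FPKM) and ATP5A1P3 (0.0581 FPKM) were those listed at 0 with IgG. UQCRFS1P1 had 2.48 FPKM with IMP1 and 3.29 FPKM with IgG, COX6A1P2 had 0.451 and 1.14 FPKM, and UQCRBP1 was listed at 0 with IMP1 and had 2.04 FPKM with IgG. Reads of a pseudogene and its parent can be exchanged in counting, so these values are uncertain. The antisense RNAs NDUFA6-AS1 (0.699 FPKM with IMP1) and NDUFB2-AS1 (0.286 FPKM) were listed at 0 with IgG, and with no strand given for the counting they cannot be told apart from the overlapping gene. A second identifier of UQCR11 (ENSG00000267059) had 4.67 FPKM with IMP1 and was listed at 0 with IgG, on the opposite side from UQCR11 itself. The second identifiers of NDUFA7, NDUFB8 and SDHD and the read-through genes NDUFC2-KCTD14 and ATP5J2-PTCD1 stayed under 1 FPKM in both libraries, and of these the second identifiers of NDUFA7 and SDHD were listed at 0 with IgG.

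The deposited interval of a gene can span a cluster of overlapping genes, and 51 of the 103 members shared theirs with another listed gene. Structural subunits that shared an interval and those that did not had medians on either side of 0. The 36 that shared one had a median log2 ratio of 0.11, with 8 higher and 5 lower, and the 39 alone had a median of -0.20, with 10 (25.6%) higher and 6 (15.4%) lower. Of all 9851 genes alone in their interval, at any level, 37.6% were higher and 32.0% lower. All 39 subunits were at 1 FPKM or more in both, where 11.5% of all genes were higher and 44.0% lower. Among the 39, whose intervals ran from 2344 to 132953 bases, the ratio showed almost no relation to interval length (Spearman's rho 0.07 across genes). The ratio fell with the level in the IgG library (rho -0.73 over the 73 subunits at 1 FPKM or more in both, -0.49 over the 6909 genes) and had a rho of 0.02 with that in the IMP1 library. The ratio holds the IgG level in its denominator and the IMP1 level in its numerator, which by itself lowers the first rho and raises the second, so neither describes a relation apart from this coupling.

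Other genes of the pathway, from lists drawn up by function, were set beside the subunits. Of 5 further subunits and electron carriers none was higher with IMP1 and 4 were lower, with a median log2 ratio of -1.72. CYCS, which is cytochrome c, had 25.0 FPKM with IMP1 and 123 FPKM with IgG, and ATPIF1, the inhibitor of ATP synthase, had 38.1 and 165 FPKM. USMG5 and C14orf2, small proteins of the ATP synthase membrane part, had 62.7 and 207 FPKM and 44.6 and 92.4 FPKM. COX4I1, the largest nuclear subunit of complex IV, which the naming rule did not take, had 190 and 213 FPKM. Among 35 assembly factors of the complexes that were found under other names, 14 (40.0%) were higher with IMP1 and 12 (34.3%) lower, with a median of -0.25, near the 39.9% and 29.9% of all genes. Of these, 10 were listed at 0 with IgG. The 23 at 1 FPKM or more in both had a median of -0.93, with 3 (13.04%) higher and 11 (47.8%) lower, near the 11.5% and 44.0% of all genes at that level.

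The subunits encoded by mitochondrial DNA were on the IgG side on the deposited scale. Of the 13, none was higher with IMP1 and 8 (61.5%) were lower, against 44.0% of all genes at 1 FPKM or more in both and 31.6% at 10 FPKM or more, with a median of -1.10 and summed levels of 34930 FPKM with IMP1 and 89878 FPKM with IgG. MT-CYB, the mitochondrially encoded subunit of complex III, was the only one with a ratio above 0, at 0.08. Nuclear structural subunits of the complexes with mitochondrial partners, that is without complex II, had a higher median, -0.11 over 71 genes. Mitochondrial ribosomal protein genes, which also work in mitochondria, had a median of -0.10 over 77 genes. Of the 77, 20 (25.97%) were higher and 22 (28.6%) lower, against 39.9% and 29.9% of all genes. Of the 66 at 1 FPKM or more in both, 11 (16.7%) were higher and 22 (33.3%) lower, against 11.5% and 44.0% of all genes. Cytosolic ribosomal protein genes, another class of short and abundant mRNAs, had a median of -0.06 over 87 genes, with 11 (12.6%) higher and 8 (9.20%) lower. Both classes had medians close to that of the nuclear subunits.

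Direction depends on the scale on which libraries are set equal, since their totals were unlike. Setting the median gene at 1 FPKM or more in both equal raised the IMP1 values by 0.79 in log2, setting the sums equal raised them by 1.88, and setting the sums equal without the 50 highest genes raised them by 0.51. The median of complex IV, -0.64 as deposited, became 0.16, 1.24 and -0.13 in that order, and that of complex III, -0.36 as deposited, became 0.43, 1.51 and 0.14. Complex IV had the lowest median of the 5 complexes under every setting tried. Complex V had the highest as deposited, under both other pseudocounts, under the 3 rescalings and over members alone in their interval, and complex II had the highest over members with at least 0.5 FPKM in a library, over members above 0 in both and over structural subunits.

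**Figure D5:**
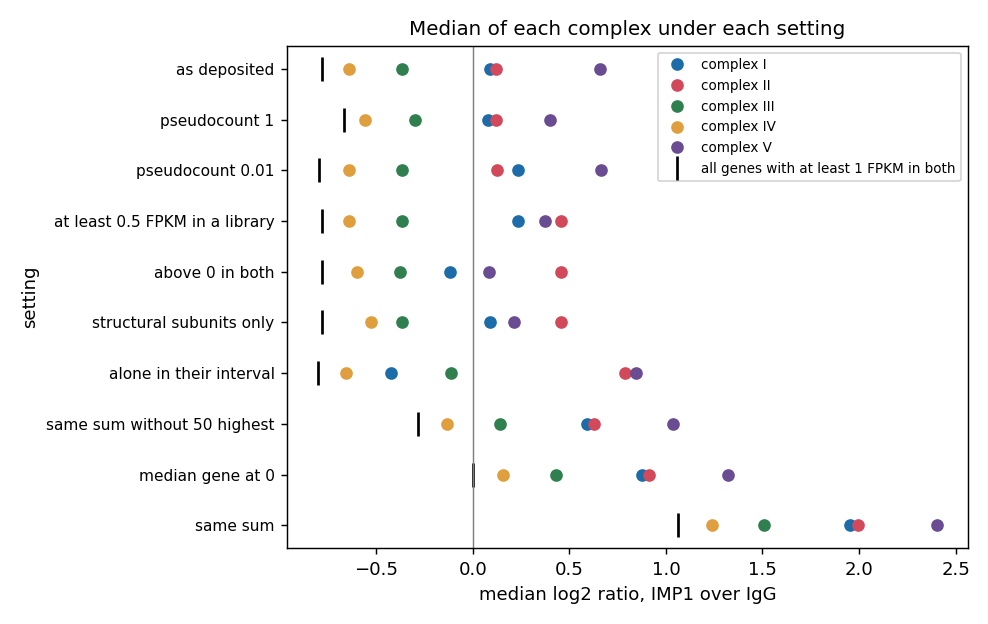
Median log2 ratio of IMP1 over IgG for the members of each complex (coloured points) under each setting (rows), with the median of all genes at 1 FPKM or more in both as a black bar. Complex IV is the lowest of the complexes in every row and lies above 0 in the bottom 2, and complex II passes complex V in 3 rows.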

How the data were processed

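RNA from 1 IMP1-antibody and 1 IgG precipitate of T47D cells was sequenced, and each library was taken as 1 sample. Gene-level FPKM, scaled by transcript length and library size, were deposited by the authors, with zeros written as 1e-05, which were set back to 0. The genome build given per the labels is hg19, and the aligner, the quantification program and the annotation are not given in the sources used here. The deposited table also holds the authors' fold change, p-value and q-value, and separate tables hold genes they selected by these. None of these was used. Starts of deposited intervals count from 0, so 1 was added.

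From FPKM, log2 ratios with a pseudocount of 0.1 FPKM were computed for all 18781 genes and counted past 2-fold (a log2 ratio above 1 or below -1), in Python 3.11.15 (pandas 2.3.3, numpy 2.4.6, scipy 1.17.1; plots in matplotlib 3.10.9). With 1 library per condition there was no test and no p-value. The code was tested on simulated data without noise and recovered 200 of 200 genes set 4-fold apart. This checks the arithmetic only and does not measure sensitivity in these libraries. Depth is unknown. Genes were named by role: catalytic subunits, the 3 highest and 3 lowest ratios of each complex, the 5 highest of each library, members listed at 0, isoforms and paralogs, and assembly factors; other subunits were named to complete their complex. The members and lists were chosen with earlier results of these data known. Promoter windows came from RefSeq (GRCh38.p14) by symbol, matching 72 of 103 members. COX6A2, COX6B2, COX7A1, COX7B2, COX8C, UQCRHL and ATP5L2 fit the naming rule but were not among the 18781 genes listed. Protein length was not analysed here. The values of 1 complex I subunit are not reported here. Alternatives changed the pseudocount, the filter, the scaling, the threshold and the set of members.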

Additional observations from a re-analysis of the deposited data

How the results depend on the processing

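As reported, 31 of the 103 members were higher with IMP1 and 18 lower. The median log2 ratio was 0.01 over the members and 0.09, 0.12, -0.36, -0.64 and 0.66 in complexes I to V. The medians of 0.01 and 0.66 are each the ratio of a gene below 0.1 FPKM in both libraries. Of 76 recomputed values 52 stayed within 1.5-fold of the reported count or ratio, which lets a median near 0 change sign, and 24 moved further. With the median gene set equal, 47 were higher and 9 lower, the members' median was 0.75 and the complexes' medians were 0.88, 0.91, 0.43, 0.16 and 1.32. With equal sums, 79 were higher and 4 lower, and the medians were 1.76 over the members and 1.95, 1.99, 1.51, 1.24 and 2.40. With equal sums without the 50 highest genes, 10 were lower. The share of higher among members past 2-fold was 63.3% as deposited and 83.9%, 95.2% and 80.4% under these rescalings. Over all genes it was 57.2% as deposited and 69.9%, 83.1% and 65.2%. Of the 103 members 45.6%, 76.7% and 39.8% were higher in the same order, against 49.3%, 63.7% and 45.5% of all genes. Lower were 8.74%, 3.88% and 9.71% of the members, against 21.3%, 12.95% and 24.3% of all genes. A smaller share of members than of all genes was thus higher, except with equal sums. A rescaling multiplies every IMP1 value by the same factor, which by construction moves the ratios together. Fewer genes were counted over members above 0 in both libraries (17 higher), over structural subunits (18 higher and 11 lower) and at a 4-fold threshold (8 lower). Over members alone in their interval, an alternative chosen after seeing the data, 15 (28.8%) were higher and 10 (19.2%) lower. Of all genes alone in theirs 37.6% were higher and 32.0% lower. Complex II, with 3 members alone in their interval, had a median of 0.79. No paired analysis was possible because there was 1 library per condition and no result came from a test, and for the same reason no replicate could be left out. Depth is unknown, so how far low values are set by counting error cannot be told, and every value rests on 1 precipitate.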

Other observations

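Nuclear regulators of respiratory chain genes were low to moderate in both libraries. Of 7 listed regulators 1 (14.3%) was higher with IMP1 and 2 (28.6%) were lower, against 39.9% and 29.9% of all genes, with a median log2 ratio of -0.30. PPRC1, a coactivator of the PGC-1 family, had 3.08 FPKM with IMP1 and 1.12 FPKM with IgG. ESRRA, an orphan nuclear receptor that acts on many mitochondrial genes, had 2.96 FPKM with IMP1 and 24.0 FPKM with IgG. GABPA, an ETS factor known to bind respiratory chain promoters, had 2.18 FPKM with IMP1 and 14.4 FPKM with IgG. It shares its deposited interval with the ATP synthase gene ATP5J, which was within 2-fold.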
